A study of Chlorocebus sabaeus with 3 samples.

Results

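PTPRC, LCP1, CORO1A, CD53, CD37, CD48, HCLS1, LSP1, ARHGDIB and RAC2 are genes of the surface and the actin cytoskeleton that most white blood cells share. Their RNA was followed in the cell-free supernatant of amniotic fluid from vervet monkeys (Chlorocebus sabaeus). Of these 10 names, 9 were found as row names among the 33994 genes of each file. LSP1 was found under LOC103237714, whose gene ID carries the symbol LSP1 in NCBI RefSeq (assembly mChlSab1.0.hap1), and it is described beside the 9 but kept out of their counts. The files held 1 library from a stillborn pregnancy (sex label M), 1 from a spontaneous abortion (sex label NA) and 1 from a pregnancy labelled alive (sex label F), with 17749954, 29926352 and 20220899 assigned reads. The labels used here state no age, gestation or sampling time. With 1 library per status, each comparison sets library against library, no test was made, and every interval covers counting error only.

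PTPRC encodes CD45, the transmembrane tyrosine phosphatase that defines nucleated blood cells and activates SRC-family kinases. CD53 and CD37 are tetraspanins of the leukocyte membrane, and CD48 is a lipid-anchored ligand of the SLAM family. LCP1 (L-plastin) bundles actin filaments, CORO1A (coronin 1A) acts on their turnover, and HCLS1 is the haematopoietic relative of cortactin. LSP1 binds F-actin in lymphocytes and neutrophils. RAC2 is the haematopoietic RAC GTPase, needed for actin remodelling and for the oxidase of phagocytes, and ARHGDIB is an inhibitor that holds small GTPases of the RAC type in the cytosol. Amniotic fluid is known to carry RNA from fetal skin, gut, airway and membranes, and leukocytes enter it in inflammation.

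The genes shared neither 1 level nor 1 size of difference. PTPRC, CD53, CD37, HCLS1 and RAC2 were at RPKM 1.66 or below in the spontaneous abortion and alive libraries and 4.69-fold to 31.2-fold higher in the stillborn library than in either of them. ARHGDIB, LCP1 and CD48 were abundant in all 3 libraries and 1.46-fold to 2.59-fold higher in the stillborn library. CORO1A was near the limit of detection throughout. Which cells these RNAs came from was not tested, and numbers of cells and RNA per cell cannot be told apart in such bulk values. In spontaneous abortion over alive the intervals of 6 of the 9 genes included 1, the exceptions being CD53, LCP1 and ARHGDIB.

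Levels are given as RPKM, the reads of a gene divided by its length and by the assigned reads of the library, and as numbers of reads recovered from the RPKM values, which are lower bounds. Ratios between libraries were taken on reads scaled by the trimmed mean of M-values (TMM), with exact Clopper-Pearson 95% intervals for the split of the summed reads. To count as apart, a gene needed a ratio of at least 4-fold, an interval that excluded 1 and no fewer than 30 reads in the higher library.

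Of the surface proteins, PTPRC had an RPKM of 0.250 (stillborn), 0.0579 (spontaneous abortion) and 0.0591 (alive), from 115, 45 and 31 reads. The stillborn library was the high one, and its 95% Poisson interval began at 0.206, while those of the others ended at 0.0775 (spontaneous abortion) and 0.0838 (alive). PTPRC was 4.73-fold higher in the stillborn than in the alive library (3.16 to 7.28) and 4.69-fold higher than in the spontaneous abortion library (3.29 to 6.77), in both cases just past the 4-fold limit. On the scale log2(RPKM + 0.1), which understates ratios of low genes, both came to 2.34-fold.

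CD53 was at RPKM 1.69 (stillborn), 0.0917 (spontaneous abortion) and 0.230 (alive), from 142, 13 and 22 reads. It was 8.23-fold higher in the stillborn than in the alive library (5.23 to 13.5) and 20.0-fold higher than in the spontaneous abortion library (11.4 to 38.6). CD53 was also the member with the lowest ratio of spontaneous abortion to alive, at 0.410 (0.190 to 0.852), on fewer than 30 reads in each. CD37 was at RPKM 1.30 (stillborn), 0.209 (spontaneous abortion) and 0.140 (alive), from 81, 22 and 10 reads. Its stillborn level was 10.3-fold higher than in the alive library (5.34 to 22.3) and 6.76-fold higher than in the spontaneous abortion library (4.17 to 11.4). These tetraspanins thus had the same high library but a different order in the other 2, where their intervals of spontaneous abortion over alive (0.190 to 0.852 for CD53, 0.694 to 3.62 for CD37) overlapped.

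CD48 differed from the other surface members in level and in ratio. It was at RPKM 8.84 (stillborn), 5.21 (spontaneous abortion) and 5.03 (alive), from 1239, 1232 and 803 reads. The stillborn library was 1.97-fold higher than the alive library (1.80 to 2.15) and 1.85-fold higher than the spontaneous abortion library (1.70 to 2.00). CD244 and CD2, known receptors of CD48 on lymphocytes, had almost no reads. CD2 was at 0 in all 3 libraries, and CD244 was at RPKM 0 (stillborn), 0.00614 (spontaneous abortion) and 0.0636 (alive).

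**Figure D1:**
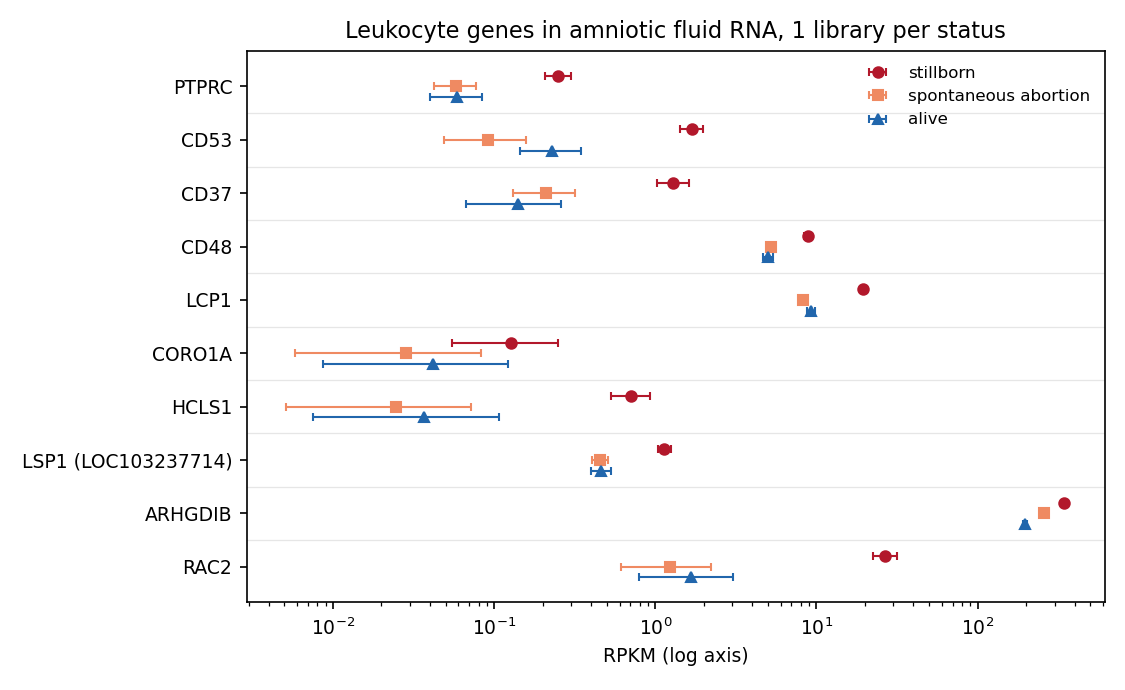
RPKM (log axis) of the 9 leukocyte genes found by name and of LSP1 in the stillborn (circle), spontaneous abortion (square) and alive (triangle) libraries, with exact 95% Poisson intervals of the reads, some narrower than the symbol. The stillborn value is the highest for every gene, while the genes themselves range from RPKM 0.0247 (HCLS1, spontaneous abortion) to 344 (ARHGDIB, stillborn).

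Among the actin-binding proteins, LCP1 was at RPKM 19.6 (stillborn), 8.23 (spontaneous abortion) and 9.28 (alive), from 2558, 1813 and 1382 reads. It was 2.36-fold higher in the stillborn than in the alive library (2.21 to 2.52) and 2.59-fold higher than in the spontaneous abortion library (2.44 to 2.75). LCP1 stood above 81.0% of the genes with any reads in the alive library and above 90.2% in the stillborn library.

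HCLS1 was at RPKM 0.709 (stillborn), 0.0247 (spontaneous abortion) and 0.0366 (alive), from 51, 3 and 3 reads. The ratio was 21.7-fold over the alive library (7.01 to 109) and 31.2-fold over the spontaneous abortion library (10.1 to 156), with wide intervals because the lower libraries held so few reads. On log2(RPKM + 0.1) these ratios were 6.35-fold and 6.90-fold, below those of RAC2 on the same scale (17.0-fold and 21.8-fold), and the intervals of both genes overlapped.

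CORO1A had 8 reads (stillborn), 3 (spontaneous abortion) and 3 (alive), or RPKM 0.127, 0.0283 and 0.0419. Its ratio of stillborn to alive was 3.40 (0.816 to 19.9), so that no difference was detectable at this depth. Over the spontaneous abortion library the ratio was 4.89 (1.17 to 28.6). CORO1A never reached the 30 reads needed to be counted. LSP1, by its RefSeq gene ID, was at RPKM 1.14 (stillborn), 0.454 (spontaneous abortion) and 0.461 (alive), from 459, 309 and 212 reads. It was 2.76-fold higher in the stillborn than in the alive library (2.34 to 3.26) and 2.73-fold higher than in the spontaneous abortion library (2.35 to 3.16), close to LCP1 and short of the 4-fold limit.

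RAC2 was at RPKM 26.7 (stillborn), 1.23 (spontaneous abortion) and 1.66 (alive), from 141, 11 and 10 reads. It was 18.0-fold higher in the stillborn than in the alive library (9.49 to 38.3) and 23.5-fold higher than in the spontaneous abortion library (12.8 to 48.2). The stillborn library alone was high, and the other 2 did not differ beyond counting error (0.764, 0.295 to 2.01).

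ARHGDIB was at RPKM 344 (stillborn), 257 (spontaneous abortion) and 196 (alive), from 7618, 9597 and 4938 reads. By RPKM it ranked 174th, 198th and 276th among the genes with any reads in these libraries. The stillborn library was 1.97-fold higher than the alive library (1.90 to 2.04) and 1.46-fold higher than the spontaneous abortion library (1.413 to 1.501). ARHGDIB was the only one of the 9 genes whose spontaneous abortion level lay above the alive level with an interval clear of 1, at 1.35-fold (1.30 to 1.40).

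Of the summed RPKM of the 9 genes, ARHGDIB alone held 85.3% (stillborn), 94.5% (spontaneous abortion) and 92.2% (alive). Without it the sums were 59.1, 15.1 and 16.5. The order of the genes by RPKM in the alive library was ARHGDIB, LCP1, CD48, RAC2, CD53, CD37, PTPRC, CORO1A and HCLS1. Among the low members of that order, the Poisson intervals of CD53 (0.144 to 0.348) and CD37 (0.0674 to 0.258) overlapped, as did those of CORO1A (0.00863 to 0.122) and HCLS1 (0.00755 to 0.107).

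The order by RPKM rests on the gene lengths behind the deposited values. The smallest length that gave whole reads was 25955 bases for PTPRC, 7900 for CD48, 7364 for LCP1, 1246 for ARHGDIB and 298 for RAC2. Over genes with at least 200 reads, the median of this length was 2651 bases for the 3128 genes with 1 transcript in RefSeq and 13235 for the 590 genes with 5. The recovered reads rest on these lengths too and are lower bounds. Ratios of 1 gene between libraries do not depend on its length.

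In stillborn against alive, 5 of the 9 genes counted as apart on the high side and 0 on the low side. Of all 13475 genes with at least 30 reads in the higher of these libraries, 4.71% were apart as higher, 3.23% as lower and 7.93% in either direction. Against the spontaneous abortion library the same 5 counted on the high side and 0 on the low side, beside 2.82% higher, 1.65% lower and 4.47% in either direction among 13834 genes. These comparisons share the stillborn library. CD53, CD37, HCLS1 and RAC2 reached 30 reads in the stillborn library alone, so each of them could be counted only as higher there. PTPRC reached 30 reads in all 3 libraries. For the spontaneous abortion over the alive library 0 of the 9 were apart in either direction, with 4 of them reaching 30 reads, against a background of 2.31% higher, 1.5% lower and 3.81% in either direction among 13830 genes.

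Median differences were taken on TMM-scaled log2(RPKM + 0.1). Over the 4 genes whose mean RPKM reached 1 (LCP1, CD48, ARHGDIB and RAC2), the median was 1.10 for stillborn over alive. It was -0.02 for spontaneous abortion over alive and 1.12 for stillborn over spontaneous abortion. Over all 10229 genes with such a mean the medians were -0.01, 0.00 and -0.02. Over all 9 genes the medians were 1.23, -0.12 and 1.36, on a scale that understates the ratios of the low genes among them. For stillborn over alive PTPRC came to 1.23 on this scale and to 2.24 as a log2 ratio of scaled reads. On total assigned reads in place of TMM, the median of all genes moved by -0.16 for stillborn over alive and -0.12 for stillborn over spontaneous abortion, and no gene of the 9 changed direction in a stillborn comparison.

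Relatives expressed outside blood cells, available for 8 of the genes, give a ratio within a library, free of scaling between libraries. RAC2 had 29.6% of the RPKM of RAC1, the ubiquitous RAC GTPase, in the stillborn library, against 1.69% (spontaneous abortion) and 2.45% (alive). RAC1 itself was at RPKM 90.0, 73.1 and 67.7 in the same order. HCLS1 had 27.8% of the RPKM of CTTN, the cortactin of epithelia and fibroblasts, in the stillborn library, and 0.522% and 0.597% in the spontaneous abortion and alive libraries. CTTN was at 2.55, 4.74 and 6.14, so that member and relative differed in opposite directions.

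Relative to CORO1C, a broadly expressed coronin, CORO1A stood at 1.22% (stillborn), 0.248% (spontaneous abortion) and 0.253% (alive). CD53 and CD37 had 10.7% and 8.23% of the RPKM of the lysosomal tetraspanin CD63 in the stillborn library. In the spontaneous abortion library they had 0.739% and 1.68%, and in the alive library 1.47% and 0.899%. Relative to PTPRA, a receptor phosphatase of many tissues, PTPRC stood at 27.6% (stillborn), 9.99% (spontaneous abortion) and 7.10% (alive).

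For LCP1 and ARHGDIB the leukocyte member was the more abundant form in all 3 libraries. LCP1 exceeded PLS1, the plastin of intestinal and kidney brush borders, at 4361% (stillborn), 3474% (spontaneous abortion) and 4951% (alive) of its RPKM. PLS1 was used because PLS3, the plastin of most solid tissues, was not analysed here. Relative to ARHGDIA, the ubiquitous inhibitor of the same family, ARHGDIB stood at 3261% (stillborn), 1883% (spontaneous abortion) and 983% (alive). ARHGDIA was at RPKM 10.6, 13.7 and 19.9. Of the 23 relatives analysed, 19 reached 30 reads in each of the 3 comparisons and 0 were apart. Among all genes with such reads 7.93% were apart in stillborn over alive. The shares were 3.81% in spontaneous abortion over alive and 4.47% in stillborn over spontaneous abortion. With 19 genes, 0 is near these shares. Over the 19 the median log2 ratio was -0.11 for stillborn over alive.

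**Figure D2:**
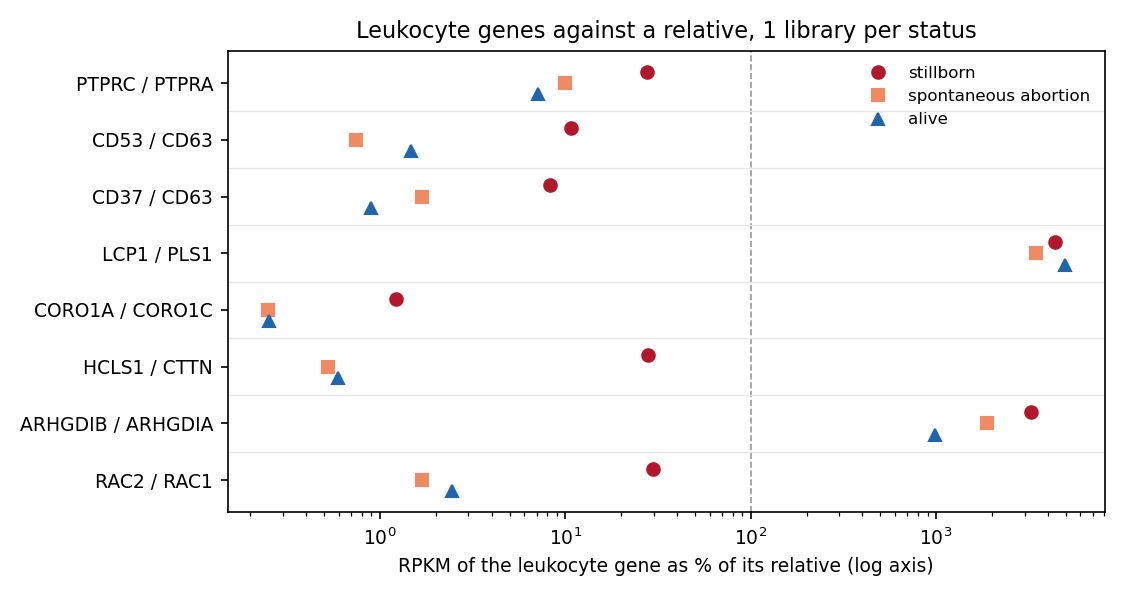
RPKM of 8 of the leukocyte genes, CD48 and LSP1 not included, as a percentage of the RPKM of a relative (log axis) in the stillborn (circle), spontaneous abortion (square) and alive (triangle) libraries, 1 library per status. The dashed line is equality: LCP1 and ARHGDIB lie above it in every library, the others below it, and only LCP1 over PLS1 is not highest in the stillborn library.

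Other genes of leukocyte surface and signalling gave a like split. Of 20 analysed, 11 reached 30 reads in stillborn against alive. Of these, 7 were apart, all of them higher, beside 4.71% of all genes with such reads. CD52, EVI2A, EVI2B, IKZF1 and LCP2 reached 30 reads only in the stillborn library of this comparison, so they could be counted only as higher. LAPTM5, a lysosomal protein of haematopoietic cells, was at RPKM 23.7 (stillborn), 1.04 (spontaneous abortion) and 1.83 (alive), 14.5-fold higher in stillborn than alive (11.6 to 18.4). SRGN, the proteoglycan of leukocyte granules, was at 16.1, 0.871 and 2.13, and LCP2 (SLP-76), an adaptor of immune receptors, at 8.05, 0.684 and 0.384. CD52, a small glycoprotein of lymphocytes and monocytes, was 27.4-fold higher in stillborn than alive (10.3 to 103), and EVI2A, EVI2B and the transcription factor IKZF1 11.5-fold, 38.9-fold and 6.59-fold. IL2RG, the shared cytokine receptor chain, was not among them, at RPKM 2.97, 1.33 and 3.05. Against the spontaneous abortion library 13 reached 30 reads and 8 were higher, beside 2.82% of all genes with such reads. TNFAIP8L2, a brake on immune receptor signalling, was the addition, at 15.6-fold (5.56 to 60.5). In spontaneous abortion against alive none of these genes was higher by the rule, and 1 (IL16, a cytokine precursor) was lower.

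Of 22 actin regulators of haematopoietic cells, 17 reached 30 reads in stillborn against alive. Of these, 7 were apart, each of them higher, beside 4.71% of all genes with such reads. DOCK2, FERMT3, CYTIP and ARHGAP25 reached 30 reads only in the stillborn library of this comparison, so they could be counted only as higher. NCKAP1L (HEM1), the blood-cell subunit of the WAVE complex, was at RPKM 3.35 (stillborn), 0.396 (spontaneous abortion) and 0.661 (alive), 5.68-fold higher in stillborn than alive (4.20 to 7.80). DOCK2, the RAC exchange factor of leukocytes, was 7.49-fold higher (3.51 to 18.3), and FERMT3 (kindlin-3), which activates their integrins, 19.1-fold (4.85 to 165). GMFG, CYTIP and ARHGAP30 were 4.58-fold, 5.0-fold and 6.74-fold higher. ARHGAP25, with 40 stillborn reads against 0 alive reads, was at least 17.0-fold higher against a floor of 3 reads in the alive library, and its exact interval began at 13.2. The other 15 of the 22 were not apart, leukocyte genes among them, of which those named next were chosen after their values were seen. ARHGAP9, a GTPase-activating protein of blood cells, was at RPKM 0.255, 0.287 and 0.459, a ratio of 0.621 in stillborn over alive (0.447 to 0.855). DOCK8 was 2.51-fold higher (2.06 to 3.06), and VAV1, MYO1G and WAS did not reach 30 reads. Of the most abundant members, WIPF1 was at RPKM 5.09, 6.71 and 6.10 and ARHGEF6 at 1.70, 1.60 and 1.88, while ARPC1B (listed as LOC103246949) was at 11.6, 14.5 and 8.34. Against the spontaneous abortion library 17 reached 30 reads and 9 were higher, beside 2.82% of all genes with such reads. Among these 9 were BIN2, a membrane-bending protein of leukocytes, at 6.95-fold (5.10 to 9.63), and the formin FMNL1 at 4.39-fold (2.89 to 6.81). MYO1F, a leukocyte myosin, was low in the spontaneous abortion library alone, at 0.994 (stillborn), 0.113 (spontaneous abortion) and 1.03 (alive).

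Of the kinases that CD45 acts on and their partners, FGR, a SRC-family kinase of phagocytes, was at RPKM 1.06 (stillborn), 0.0498 (spontaneous abortion) and 0.0938 (alive), 12.7-fold higher in stillborn than alive (8.57 to 19.4). LYN, which epithelia also express, was at 16.1, 11.4 and 5.48, and YES1 at 6.73, 8.18 and 6.84. CSK, the kinase that holds this family inactive, was at 1.77, 3.16 and 2.97, and SRC at 1.48, 2.55 and 2.46. Of 6 integrins analysed, 5 reached 30 reads in stillborn against alive. Beside 4.71% of all genes with such reads, ITGB2, ITGAL, ITGAX and ITGA4 were apart as higher. These 4 reached 30 reads only in the stillborn library of this comparison, so they could be counted only as higher. ITGB2, the shared beta-2 chain, was 6.37-fold higher (3.48 to 12.6). ITGAM, the alpha chain of MAC-1, was low in the spontaneous abortion library alone, at 0.310 (stillborn), 0.0103 (spontaneous abortion) and 0.142 (alive). None of the 6 reached RPKM 1 in any library. NCF4, a cytosolic subunit of the phagocyte oxidase, was at RPKM 1.04, 0.238 and 0.0352, and the membrane subunit CYBA (listed as LOC103233451) at 0.490, 0.498 and 1.11. Of 9 SLAM family and partner genes, 3 reached 30 reads in stillborn against alive. CD84, a SLAM family receptor, was the only one apart there, at 40.9-fold higher (24.1 to 75.4), beside 4.71% of all genes with such reads. It reached 30 reads only in the stillborn library of this comparison, so it could be counted only as higher. SLAMF8, a member found on macrophages, was at RPKM 0.475, 0.0874 and 0.155 and joined CD84 against the spontaneous abortion library at 5.91-fold (4.13 to 8.60). CD58, an adhesion ligand of the CD48 family, was at 0.608, 0.425 and 0.288.

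**Figure D3:**
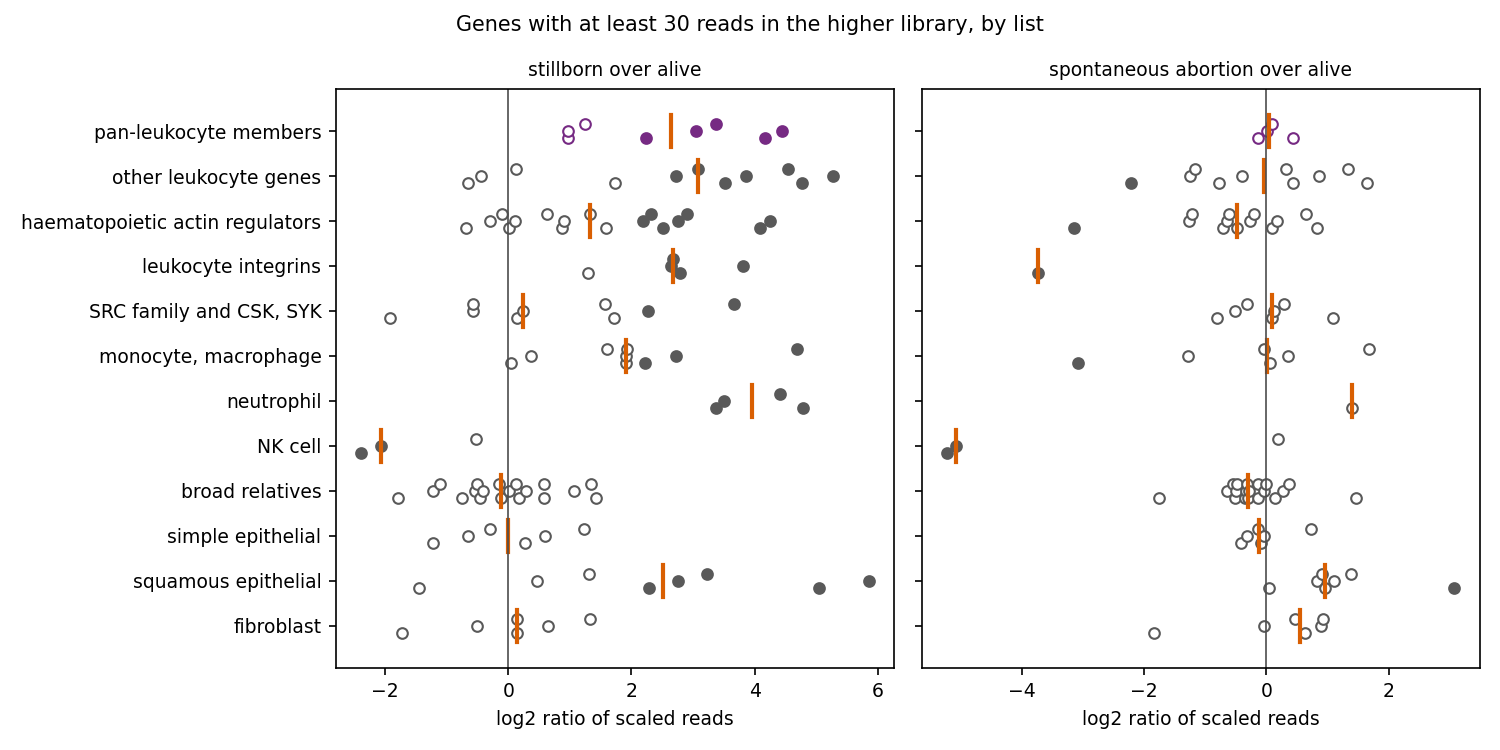
Log2 ratio of TMM-scaled reads for every gene with at least 30 reads in the higher library, by list, for stillborn over alive (left) and spontaneous abortion over alive (right), with x axes of different range. Each point is 1 gene, filled where it was counted as apart, with the pan-leukocyte members in purple, and the orange bar is the median of the list. In the left panel the medians of the pan-leukocyte, other leukocyte, actin regulator, integrin, monocyte, neutrophil and squamous lists lie to the right of 0. The SRC family (0.24), fibroblast (0.14) and simple epithelial (-0.008) medians lie near 0. The broad relatives lie at -0.11 and the NK cell list at -2.06. Most integrin and all neutrophil points there reached 30 reads in the stillborn library alone, which set their side of 0. In the right panel the 4 pan-leukocyte members with enough reads lie near 0.

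Markers of single leukocyte types show which of them moved beside the 9 genes. Monocyte and macrophage markers were present in all 3 libraries, with a summed RPKM of 61.5 (stillborn), 13.6 (spontaneous abortion) and 19.9 (alive) over 12 genes. The Fc receptor chain FCER1G was at RPKM 20.8, 2.49 and 6.20, CD68 at 14.9, 5.46 and 4.37, LYZ at 12.0, 4.18 and 4.42 and TYROBP at 4.39, 0.280 and 1.30. MSR1, MRC1 and C1QB were apart as higher in stillborn against alive, beside 4.71% of all genes with at least 30 reads in the higher library. MSR1, the scavenger receptor, was 25.8-fold higher (12.8 to 60.8). CD14 was low in the spontaneous abortion library alone, at 1.33, 0.165 and 1.44. All 9 of these markers with at least 30 reads had a ratio of stillborn to alive above 1. All 9 reached 30 reads in the stillborn library and only 5 in the alive library. For the rest the read minimum itself set a ratio above 1. For CD14 (1.03, 0.675 to 1.58) and CSF1R (1.30, 0.878 to 1.92) the interval included 1. CD163, below 30 reads in every library, was at RPKM 0.0256, 0.0138 and 0.0491, a ratio of 0.584 (0.258 to 1.24). Neutrophil markers summed to 24.0, 3.72 and 1.67 over 11 genes, with S100A8, S100A9, MMP9 and TREM1 apart as higher in stillborn against alive. These 4 reached 30 reads only in the stillborn library of this comparison, so they could be counted only as higher. The share among all genes with such reads was 4.71%. S100A8 and S100A9, at RPKM 7.11 and 10.2, gave most of the stillborn sum, and the cells they came from were not tested. The other 7 had few reads and were not apart: CSF3R had 0, 8 and 0, CEACAM8 had 0, 0 and 2, FPR1 had 2, 0 and 3, MMP8 had 23, 7 and 0, CXCR2 had 10, 3 and 3, and ELANE and MPO were at 0 in all 3 libraries.

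T cell markers had few reads in every library. The 12 T cell markers had a summed RPKM of 0.766 (stillborn), 0.0528 (spontaneous abortion) and 0.1004 (alive), from 38, 13 and 23 reads, and were thus highest where the pan-leukocyte genes were. CD3G had 10 reads and CD8A 12 in the stillborn library and both had 0 in the others, CD6 had 3, 9 and 19, and none of the 12 reached 30. CD3D, CD3E, CD247, CD2, CD5 and CD8B were at 0 in every library. Of 8 B cell markers, MS4A1, CD79B and PAX5 were at 0 throughout, and BLNK, an adaptor that other cells express too, held most of the reads. The 7 NK cell markers had a summed RPKM of 4.003, 1.69 and 18.5, highest in the alive library through GNLY and GZMB. GNLY, a granule protein of cytotoxic cells, was at RPKM 1.51 (stillborn), 0.256 (spontaneous abortion) and 8.84 (alive), and the granzyme GZMB at 1.81, 0.220 and 8.44. NCAM1 did not follow, at 0.686, 1.22 and 1.10. It held most of the NK marker reads (331 of 386, 990 of 1003 and 604 of 929). KLRD1, NKG7 and KLRB1 had few reads, in the alive library alone. PRF1 was at 0 in all 3.

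Markers of other cell types moved as well. Of 8 squamous epithelial genes, 5 (KRT6A, KRT14, SPRR3, CRNN and SBSN) were higher in stillborn than alive by the rule, and all 8 together had a summed RPKM of 866 (stillborn), 465 (spontaneous abortion) and 313 (alive). KRT5 was not among the 5, at RPKM 49.1, 151 and 151. The share of all genes with at least 30 reads that were higher was 4.71%. All 8 squamous genes reached 30 reads in the stillborn library and 6 in the alive library. Simple epithelial genes, led by KRT19 at 316, 434 and 554, had 0 of 6 apart and summed to 439, 581 and 721. Fibroblast genes, led by LUM at 222, 239 and 158, had 0 of 7 apart and summed to 301, 329 and 224. In lists this short, 0 is near the 7.93% of all genes apart in either direction in stillborn over alive. Endothelial genes summed to 1.20, 1.53 and 1.39 with CDH5 at 0 in all 3 libraries, platelet genes to 1.16, 0.425 and 0.445, mast cell, eosinophil and basophil genes to 0.0807, 0.178 and 0.0557, and erythroid genes to 0.216, 2.01 and 0.213. Of the erythroid sum, HBB (listed as LOC103247901) gave 0.162, 1.82 and 0.213. Dendritic cell genes summed to 1.40, 1.02 and 2.25, with FLT3 highest in the alive library at 0.236, 0.0167 and 1.70. The part of any of these cell types in the values of the 9 genes was not tested.

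Over 3 libraries the shape of a profile says little. The centred log2(RPKM + 0.1) profiles nearest to the median of LCP1, CD48, ARHGDIB and RAC2 belonged to NCEH1, TMEM128, ZNF782, INSIG1 and LOC103234070, at Euclidean distances of 0.0349 to 0.0619. Of 10166 other genes, 73 lay within 0.2. Of the 10 leukocyte genes themselves, PTPRC lay at 0.0856 from that median, LSP1 at 0.121, LCP1 at 0.181, CD48 at 0.186, CORO1A at 0.287, ARHGDIB at 0.417, CD37 at 1.12, HCLS1 at 1.30, CD53 at 1.58 and RAC2 at 2.57.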

How the data were processed

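Cell-free RNA was isolated with a circulating nucleic acid kit and amplified by single-primer isothermal amplification, per the labels' protocols. Per the submitters' processing notes, the tools were bcl2fastq 2.17, HTSeq and STAR. The build, annotation and strand setting are unstated in the sources used here. The values deposited by the authors were read as RPKM because they gave whole reads, and how the authors made them is likewise unstated.

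Reads were recovered by solving for library totals and the smallest whole length per gene (up to 200000 bases). This gave whole reads for 99.8% of 23276 genes above 0, and 35 genes were left out. Tested on simulated data, 3 of 3 totals came back exactly, and 93.3% of 17434 genes had the right reads with 0 above the truth. The simulation was built from the recovered reads and lengths, so it cannot show whether the real lengths are right. In simulated stillborn over alive libraries of 23241 genes, 100% of 200 genes changed 8-fold were recovered. The changed genes were drawn only from those above a minimum of expected reads in the alive library, so lower genes were not covered.

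TMM factors were 0.937 (stillborn), 1.02 (spontaneous abortion) and 1.05 (alive). A 0 was taken as 3 reads. No test was run. Python 3.11.15, numpy 2.4.6 and scipy 1.17.1 were used. Of 220 list genes, 199 were found by row name and 7 by RefSeq gene ID, and 14 were not analysed here. Results of a few list genes are not reported here. The members, lists and the rule for named genes (each member, the genes apart, the 4 of each list with the highest mean RPKM, and the 5 nearest profiles; genes of marker lists are given mostly as sums) were chosen with earlier results of these data known. RefSeq places SLC6A16 over CD37, PRR33 and a further gene over LSP1, and 1 unnamed gene each over HCLS1 and RAC2, and reads of overlapping genes cannot be told apart. Alternatives changed the scaling, fold and read minimum, pseudocount, filter and depth.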

Additional observations from a re-analysis of the deposited data

How the results depend on the processing

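The count of members apart was 5 for stillborn over alive, 0 for spontaneous abortion over alive and 5 for stillborn over spontaneous abortion. On total assigned reads, on median-of-ratios scaling, with a minimum of 10 reads, with all libraries thinned down to the lowest total and with LSP1 included (an alternative chosen after seeing the data) the counts were the same. With 2-fold in place of 4-fold they were 6, 0 and 6, and without a read minimum 5, 0 and 6. The median difference of the members on log2(RPKM + 0.1) for stillborn over alive was 1.10, against 0.94 on total assigned reads and 1.23 with no filter. For stillborn over spontaneous abortion it was 1.12, against 0.995 on total assigned reads, 1.02 with a pseudocount of 1 and 1.36 with no filter. With no filter 9 members enter in place of 4. For spontaneous abortion over alive it was -0.02 and stayed within -0.12 and -0.02. Of 30 single ratios, 6 left their counting interval on total assigned reads, 5 on log2(RPKM + 0.1), and 0 on median-of-ratios scaling or after thinning, and 0 of those called changed sign. No paired analysis was possible because each status has 1 library. Leaving out a replicate could give no value for the same reason. Depth limits CORO1A and HCLS1, which had 3 reads each in the spontaneous abortion and alive libraries. Read numbers are lower bounds because the smallest length was taken. Without molecular identifiers, reads of amplified RNA are not counts of molecules, and the intervals treat each read as independent.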
